A study of Mus musculus with 12 samples.

Results

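Imprinted genes are expressed mainly from the copy inherited from 1 parent. Symbols of 46 such genes were searched in the deposited expression table of fetal mouse liver, and all 46 had a row among its 30743 gene symbols. From general knowledge of mouse imprinting, 21 were taken as paternally expressed and 12 as maternally expressed. A further 9 are known as maternally expressed in some tissues, chiefly placenta or brain, and 4 give transcripts that differ in their parental copy. The livers came from male C57BL/6J fetuses at 15 ± 0.5 days post coitum. Their dams had eaten a control diet (13.5 kcal% fat) or a high-fat diet (HFD, 60 kcal% fat) for 12 to 14 weeks, and 6 fetuses of each diet were sequenced as polyA-selected RNA. The labels do not say which fetuses shared a dam. The column used holds 1 average log2 CPM (counts per 1000000 reads) for each gene over all 12 livers, so the diets are pooled and no value has a replicate error. A comparison of the diets and a separation of reads by parental copy were not analysed here.

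Imprinting is set in the germ line by DNA methylation at control regions, which then act on several neighbouring genes. Many paternally expressed genes promote fetal growth, and several maternally expressed genes restrain it. The liver before birth is a main site of IGF2 production and is also the organ in which blood cells form at this stage.

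The lowest value of the column, 0.152 CPM, was that of genes without reads. It is set by a small count that is added to every library. An added count of 2 in each of 12 libraries was assumed. With it removed, 1 CPM stands for 13.1 reads in a library of mean effective size and 158 reads over all livers. Listed values include it, and Magel2, listed at 1.05 CPM, had 141 reads. Genes just above the lowest value then fell on whole numbers of reads. All 4222 rows estimated at 1 to 10 reads lay within 0.25 of a whole number. A gene at 0 reads could have a level of up to 0.0190 CPM, which is 3 reads of this total, and this limit covers counting error only.

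Markers of liver and blood were checked before the imprinted genes. Of 12 hepatocyte genes, 10 were above 1 CPM, led by albumin (Alb, 63314 CPM) and alpha-fetoprotein (Afp, 54525 CPM). Hnf4a, a defining transcription factor of hepatocytes, was however listed at 0 reads, and Serpina1a at 5 reads. Of 9 erythroid genes with a row, 8 were above 1 CPM, led by the red cell anion exchanger Slc4a1 (12037 CPM), while Alas2, the heme synthesis enzyme of red cells, had 0.704 CPM. The share above 1 CPM was 5 of 7 for macrophage genes (highest Cd5l, 385 CPM), 4 of 8 for endothelial genes (Lyve1, 151 CPM) and 7 of 8 for stellate or mesenchymal genes (Col3a1, 712 CPM). Trophoblast genes were near 0, with none of 8 above 1 CPM and a highest level of 0.318 CPM in Syna. Neural genes passed in 2 of 7 cases (highest Tubb3, 2.24 CPM) and acinar pancreas genes in 4 of 10 (highest Cela1, 13.7 CPM).

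Low listed values were also found for genes that every cell uses. Among 15 common reference genes, picked after the values were seen, Eef1a1 had 5951 CPM and Actb 2581 CPM. In the same list Gapdh had 5.20 CPM, Ppia 0.165 CPM, Tbp 0.638 CPM and Gusb 0.312 CPM. A low or 0 value in this column is therefore given below only as listed, and not as a lack of RNA. The listed level moved with the number of transcripts annotated for a gene. Of 10977 protein-coding genes with 1 curated RefSeq transcript, 48.5% were above 1 CPM, against 40.8% of 7386 genes with 2 or more. A finer split used the GENCODE transcripts matched to RefSeq. Where 2 or more such transcripts left at most 10% of the exon bases to a single one of them, 26.9% of 1737 genes were above 1 CPM. Where they left more than 50%, 50.9% of 995 genes were. The part of transcript sharing in the level of any imprinted gene was not tested.

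**Figure D1:**
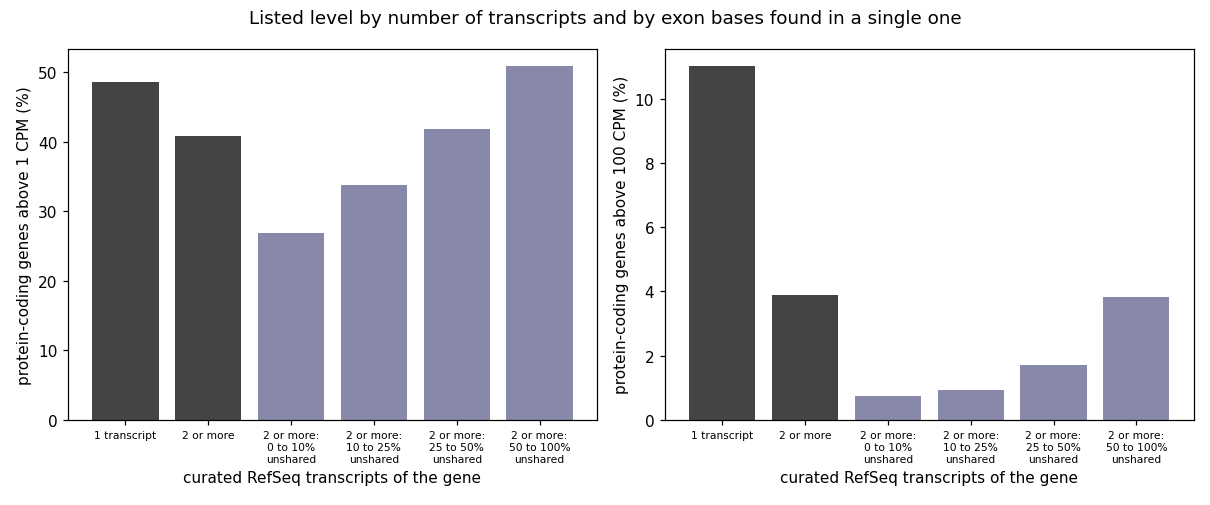
Bars give the percent of protein-coding genes whose average level was above 1 CPM (left) or 100 CPM (right), by the number of curated RefSeq transcripts (dark bars) and, for genes with 2 or more matched GENCODE transcripts, by the percent of exon bases in a single transcript (light bars). The share above 1 CPM rose from 26.9% to 50.9% across the light bars.

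Over the 46 imprinted genes, 43 had reads and 29 were above 1 CPM, or 63.0%. Over all rows of the table the share above 1 CPM was 33.1%, and over the 19652 rows with reads it was 51.8%. The median level was 1.89 CPM in the imprinted genes and 0.222 CPM in all rows. The range ran from 0.152 CPM, in 3 genes listed at 0 reads, to 569 CPM in Igf2r. Reads were concentrated in few genes. Igf2r, Igf2, Peg10 and Meg3 together held 68.3% of the summed CPM of the 46 genes. Imprinted genes with 1 curated RefSeq transcript were above 1 CPM in 14 of 19 cases (median 3.19 CPM), and those with several in 15 of 27 cases (median 1.47 CPM).

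**Figure D2:**
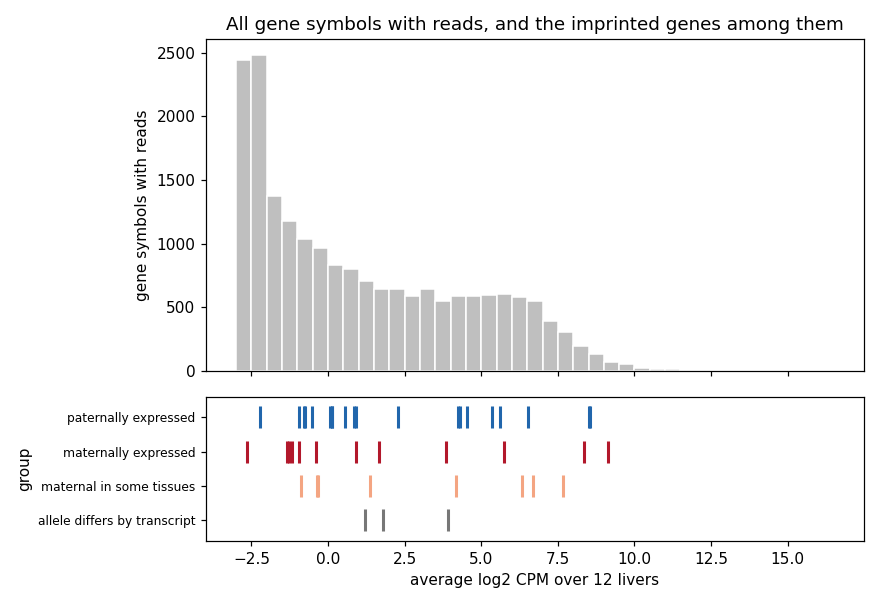
The upper panel counts gene symbols with reads by average log2 CPM over the 12 livers, and each tick in the lower panel is 1 imprinted gene with reads, by group. Imprinted genes spread over most of the range, and the highest, Igf2r, lay at 9.15 log2 CPM.

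Paternally expressed genes were above 1 CPM in 15 of 21 cases, 8 of them above 10 CPM, with a median of 1.79 CPM. Maternally expressed genes were above 1 CPM in 6 of 12 cases, 4 of them above 10 CPM, with a median of 1.32 CPM. With the genes that are maternally expressed in some tissues counted in, the maternal median was 1.89 CPM, above the paternal one. The summed level, with the added count removed, was 994 CPM for the paternally and 967 CPM for the maternally expressed genes. The genes are not replicates of their group, so no test of this difference was made.

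**Figure D3:**
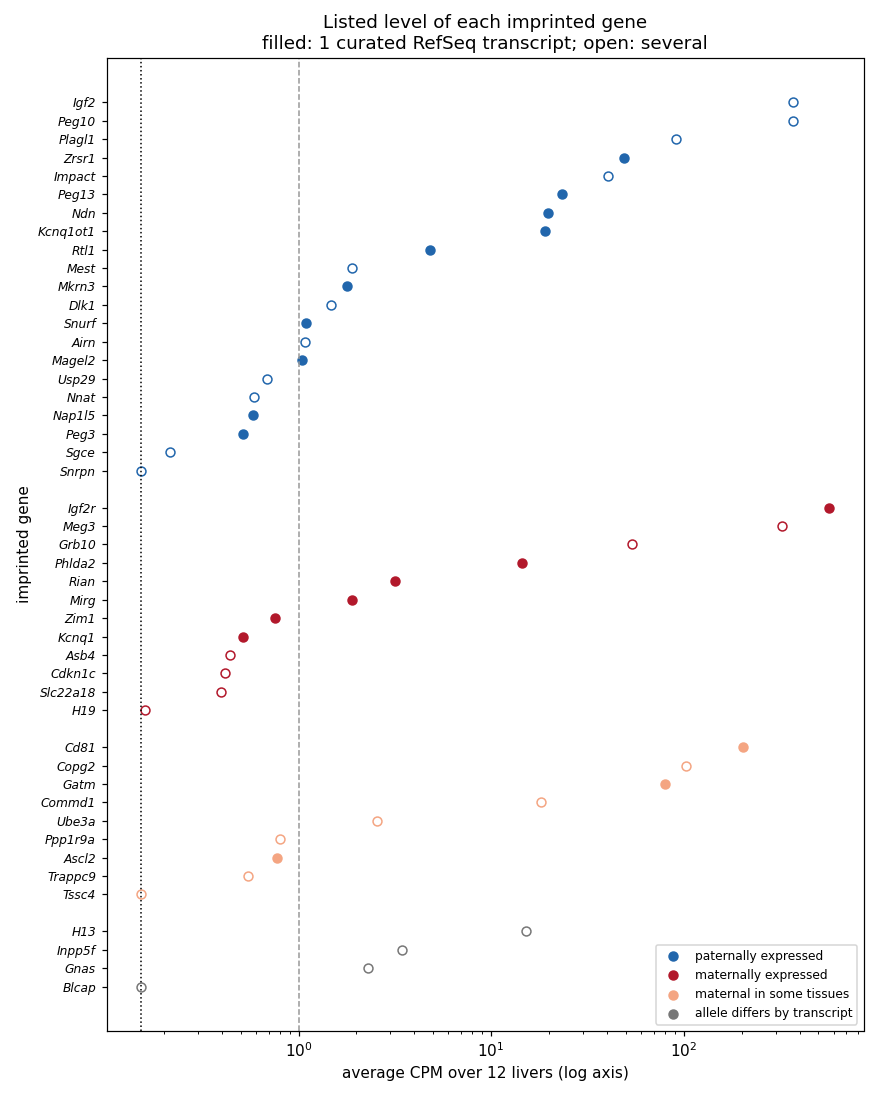
Each point is the average CPM of 1 imprinted gene over the 12 livers on a log axis, ordered within its group. Filled points have 1 curated RefSeq transcript and open points have several, the dotted line marks 0.152 CPM (no reads) and the dashed line 1 CPM.

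Among the paternally expressed genes, Igf2, the secreted growth factor of the fetus, was highest at 371 CPM (58465 reads). Its annotated span (GRCm38, also known as mm10) is chromosome 7, 142650766 to 142666816, minus strand. It has 5 curated transcripts, with 31.5% of matched exon bases in a single one, and stood at percentile 98.3 of the rows with reads. Of its annotated exon bases, 64.5% also belong to other genes, 62.8% to the same-strand gene Gm49394. The deposited table has no row under the symbol Gm49394, and a division of reads was not tested. Peg10, a retrotransposon-derived gene needed for the placenta, followed at 367 CPM (57841 reads). It lies on chromosome 6 from 4747306 to 4760517, head to head with Sgce, which encodes epsilon-sarcoglycan. Sgce was listed at 0.216 CPM (10 reads) and has 5 curated transcripts, with 5.91% of their exon bases in a single one.

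Plagl1, a zinc finger transcription factor, had 91.4 CPM (14379 reads) and lies on chromosome 10 from 13060504 to 13131694. Zrsr1, a splicing factor-like retrogene inside Commd1 on the opposite strand, had 49.1 CPM. Impact, which restrains the kinase GCN2, had 40.7 CPM. These 3 genes stood at percentiles 91.0, 85.5 and 83.9 of the rows with reads. The noncoding RNAs Peg13 and Kcnq1ot1 had 23.3 and 18.9 CPM, and Ndn, encoding the MAGE protein necdin, 19.6 CPM. Rtl1, another retrotransposon-derived gene, had 4.83 CPM.

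The other 6 paternally expressed genes above 1 CPM stayed under 2 CPM. Mest, an alpha/beta-hydrolase of the endoplasmic reticulum, had 1.88 CPM (273 reads), and 7.85% of its matched exon bases lie in a single transcript. Dlk1, the transmembrane protein that marks hepatoblasts, had 1.47 CPM (208 reads), with 5 curated transcripts and 10.1% of exon bases in a single one. Mkrn3 had 1.79 CPM, Snurf 1.10 CPM, Airn 1.08 CPM and Magel2 1.05 CPM. The last 3 lay so near 1 CPM that they fell under it once the added count was removed. Usp29, Nnat, Nap1l5 and Peg3 had 0.688, 0.590, 0.584 and 0.514 CPM, or 57 to 84 reads over all livers. Peg3 has 1 curated transcript.

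Snrpn, encoding the spliceosomal protein SmN, was the only paternally expressed gene listed at 0 reads. All 216 exon bases annotated for Snurf, on chromosome 7 from 59995449 to 60005049, also belong to Snrpn, and Snurf was listed with 149 reads. Since the same bases serve both symbols, these values cannot be read as levels of separate genes.

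Among the maternally expressed genes, Igf2r was highest at 569 CPM (89599 reads, percentile 99.0 of rows with reads). Its product carries IGF2 to the lysosome for breakdown. Igf2r lies on chromosome 17 from 12682406 to 12769664, has 1 curated transcript and shares no exon base with another gene. Airn, the paternal antisense RNA that silences Igf2r in cis, was listed at 1.08 CPM (147 reads). Meg3, a long noncoding RNA on chromosome 12 from 109541001 to 109571726, had 324 CPM (51094 reads). Grb10, an adaptor that dampens insulin and IGF receptor signalling, had 53.8 CPM (8452 reads). Of its matched exon bases, 8.65% lie in a single transcript. Phlda2, which limits placental growth, had 14.4 CPM.

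Rian and Mirg, noncoding hosts of small nucleolar RNAs and microRNAs, had 3.19 and 1.89 CPM. The polyA selection of the libraries would not keep the small RNAs cut from them. The 6 maternally expressed genes at or below 1 CPM were Zim1, Kcnq1, Asb4, Cdkn1c, Slc22a18 and H19, with levels from 0.759 to 0.159 CPM. Zim1 and Kcnq1 have 1 curated transcript each. Asb4 and Slc22a18 have 2 each, and 15.0% of the exon bases of Slc22a18 lie in a single one. Cdkn1c, the cell cycle inhibitor p57, was listed at 0.413 CPM (41 reads), with 3 curated transcripts and 4.89% of exon bases in a single one. H19, a long noncoding RNA known to be abundant in fetal liver, was listed with 1 read over the 12 livers. It lies on chromosome 7 from 142575529 to 142578143 and has 2 curated transcripts, of which 1 was matched in GENCODE, so the shared exon bases were not measured. The same match of 1 among several curated transcripts held for Blcap, Asb4, Ppp1r9a, Inpp5f, Commd1, Impact, Plagl1, Copg2 and Peg10, at low and high listed levels. Usp29, listed at 0.688 CPM and with 2 of its 8 curated transcripts matched, had 95.6% of exon bases in a single one. As with Gapdh and Hnf4a, the value listed for H19 is not evidence that its RNA was missing.

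Of the 9 genes that are maternally expressed in some tissues, 5 were above 1 CPM. Cd81, a tetraspanin of the cell surface, had 202 CPM, Copg2, a coatomer subunit, 103 CPM, and Gatm, an enzyme of creatine synthesis, 80.1 CPM. Commd1 had 18.1 CPM and the ubiquitin ligase Ube3a 2.56 CPM. Ppp1r9a, Ascl2 and Trappc9 had 0.805, 0.774 and 0.546 CPM, and Tssc4 was listed at 0 reads. Of the matched exon bases, 45.6% lie in a single transcript for Trappc9 and 37.9% for Tssc4. Ascl2 has 1 curated transcript. Among the 4 genes whose transcripts differ in parental copy, the signal peptide peptidase H13 had 15.2 CPM, the phosphatase Inpp5f 3.45 CPM and the G protein subunit Gnas 2.31 CPM. Gnas has 12 curated transcripts, with 42.3% of matched exon bases in a single one. Blcap was listed at 0 reads, and Nnat, which lies inside it, at 0.590 CPM.

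Levels were next divided by the longest annotated transcript of each gene (GENCODE M21, GRCm38), after removal of the added count, so that genes could be ordered. Per kilobase, Cd81 was highest at 126 CPM per kb, followed by Igf2 (78.6), Igf2r (64.0), Peg10 (55.1), Gatm (33.5), Copg2 (25.9) and Meg3 (22.3). By CPM Igf2r led and Cd81 was in place 5. The order depended on the length used. With the median length of all annotated transcripts, which is 803 bases for Igf2r against 8887 for its longest, Igf2r led at 708 CPM per kb, followed by Meg3 (407), Igf2 (387) and Cd81 (233). By the longest transcript, the small gene Phlda2 rose to place 8 with 18.9 CPM per kb. By the same length the unspliced Kcnq1ot1, 93092 bases long, fell to place 31 with 0.202 CPM per kb. The median by this length was 0.650 CPM per kb in paternally and 0.265 CPM per kb in maternally expressed genes. With the median transcript length this order turned, to 1.02 and 1.41 CPM per kb. By the longest transcript and over 21063 symbols matched to the annotation it was 0.119 CPM per kb. In this order, 95% Poisson intervals overlapped in 30 of 45 neighbouring pairs, so the order of those neighbours was not resolved by counting error alone. The spread between livers is unknown.

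**Figure D4:**
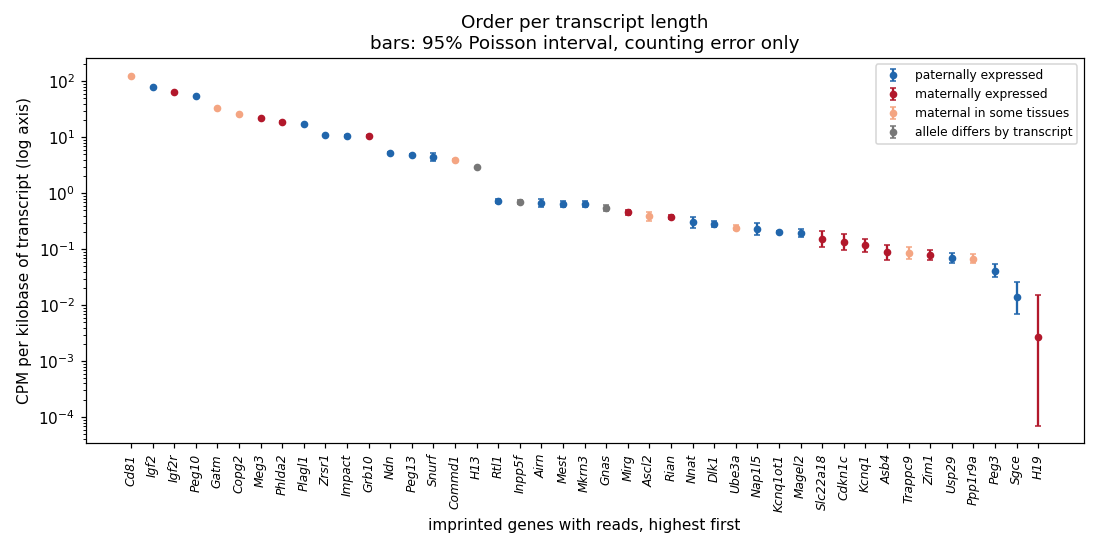
Points give the CPM per kilobase of the longest transcript on a log axis for the 43 imprinted genes with reads, and bars the 95% Poisson interval, which covers counting error only. Levels ran from 126 CPM per kb in Cd81 to 0.00276 in H19.

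The 46 genes fall into 19 imprinted domains, of which 11 hold several of them. In the Dlk1-Meg3 domain on chromosome 12 all 5 genes were above 1 CPM, and Meg3 held most of the reads, with 22.3 CPM per kb against 0.736 for Rtl1, 0.454 for Mirg, 0.375 for Rian and 0.283 for Dlk1. The Kcnq1ot1 domain on chromosome 7 had 3 of 8 genes above 1 CPM, namely Cd81, Phlda2 and Kcnq1ot1. Its growth-restraining genes thus gave 18.9 CPM per kb for Phlda2 and 0.137 for Cdkn1c. In the Snrpn domain 5 of 6 genes were above 1 CPM, and Ndn was highest at 5.27 CPM per kb. These 5 include Snurf, whose bases all belong to Snrpn as well. None of the 3 genes of the Peg3 domain (Peg3, Zim1 and Usp29) passed 1 CPM.

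Several of these genes overlap a neighbour, and the library kit used does not mark strand. Mest and Copg2 converge on chromosome 6 and share 912 exon bases on opposite strands, which are 23.1% of the exon bases of Mest and 17.8% of those of Copg2. Zrsr1 and Commd1 share 412 bases in the same way. An antisense gene covers 30.7% of the exon bases of Cdkn1c, and Gm20721 and Nespas cover 13.1% and 8.83% of those of Gnas. Genes on the opposite strand cover 27.3% of the exon bases of Ube3a, Snhg14 alone 8.74%. The antisense gene at Cdkn1c, Gm20721 and Snhg14 have no row under their symbols in the deposited table, and Nespas was listed at 0.159 CPM. The part of these overlaps in the listed levels was not tested. Nap1l5 and Peg13 lie inside Herc3 and Trappc9 and share no exon base with them. Herc3 was listed at 0.535 CPM and Trappc9 at 0.546 CPM.

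The IGF system offers a view of the genes around Igf2, Igf2r and Grb10. Of 17 further genes of this system, 13 were above 1 CPM, with a median of 10.4 CPM over the list. The binding proteins that hold IGFs in the circulation were led by Igfbp4 (645 CPM), Igfbp1 (410 CPM) and Igfbp3 (122 CPM), with Igfbp5 at 20.0, Igfbp2 at 10.4 and Igfbp6 at 2.28 CPM. Igf2bp3 and Igf2bp1, RNA-binding proteins of Igf2 mRNA in fetal tissue, had 136 and 121 CPM, and Igf2bp2 had 2.95 CPM. The receptor substrates Irs2 and Irs1 had 65.4 and 34.9 CPM. Igf1r, the receptor through which IGF2 signals, had 6.66 CPM, and the protease gene Pappa2 1.14 CPM. Igf1, Insr and Pappa were listed at 0.361, 0.267 and 0.159 CPM, and Ins2 at 0 reads.

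Promoters of the imprinted genes were read from RefSeq (GRCm38.p6) as the 250 bases before each annotated start. Windows were found for 37 of the 46 genes, 53 windows in all, leaving out Impact and the genes not in that table. The hexamer TGCCGC, which the imprint protector ZFP57 binds when it is methylated, was searched on both strands, where its reverse complement reads GCGGCA. It stood in 6 of the 37 genes (16.2%), against 12.1% of 15855 genes of the table with a window. By gene, it stood in 4 of 25 imprinted genes above 1 CPM (16.0%) and in 2 of 12 at or below 1 CPM (16.7%). The genes were Copg2, Meg3, Mest, Nap1l5, Plagl1 and Zim1, and their levels ranged from 0.584 CPM in Nap1l5 to 324 CPM in Meg3. A match describes the letters only. The windows of Meg3, Plagl1 and Mest are printed because they hold the hexamer at high, intermediate and low listed levels, and capitals mark it. They lie on the plus strand, at chr12:109540746-109540995, chr10:13090582-13090831 and chr6:30737800-30738049.
Meg3: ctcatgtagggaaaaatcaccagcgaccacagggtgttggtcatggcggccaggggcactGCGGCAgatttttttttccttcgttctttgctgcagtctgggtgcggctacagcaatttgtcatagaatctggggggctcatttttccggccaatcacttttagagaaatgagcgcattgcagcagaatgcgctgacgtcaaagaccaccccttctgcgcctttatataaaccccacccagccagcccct
Plagl1: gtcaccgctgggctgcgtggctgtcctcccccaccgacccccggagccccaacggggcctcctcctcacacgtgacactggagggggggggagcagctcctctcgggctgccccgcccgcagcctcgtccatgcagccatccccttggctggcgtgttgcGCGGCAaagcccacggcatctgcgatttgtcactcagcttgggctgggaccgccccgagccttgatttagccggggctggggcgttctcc
Mest: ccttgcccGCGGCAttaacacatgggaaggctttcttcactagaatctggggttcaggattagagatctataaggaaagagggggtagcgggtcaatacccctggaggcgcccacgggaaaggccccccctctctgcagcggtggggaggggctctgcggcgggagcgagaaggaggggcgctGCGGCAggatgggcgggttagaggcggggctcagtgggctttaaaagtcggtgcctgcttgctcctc
The Meg3 and Plagl1 windows hold the hexamer once, and the Mest window 2 times. Only Mest had 2 or more matches, in 2 of its windows that overlap, against 1.13% of all windows. The median CpG ratio, observed over that from base composition, was 0.609 in the imprinted genes and 0.544 in all windows. It was 0.422 in 24 windows of 16 paternally expressed genes, below that of all windows. It was 0.602 in 12 windows of 9 maternally expressed genes and 0.761 in 10 windows of 8 genes maternally expressed in some tissues. A gene with several windows counts several times here, and no median per gene was taken. Snrpn windows had ratios from 0.172 to 0.356, and Snrpn and Snurf share the window at 0.356. The window of Igf2r stood at 0.913, and a second Meg3 window held no CpG.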

How the data were processed

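RNA of 12 whole fetal livers was sequenced as polyA-selected, unstranded libraries (Illumina TruSeq RNA v2). Per the submitters' processing notes, the authors used cutadapt 1.2.1 for trimming, Subread 1.3.6-p1 for alignment (build mm10) and edgeR for testing. The read counter and its handling of shared reads are not given in the sources used here. The deposited average log2 CPM column, the authors' mean over all libraries, includes a prior count. The other deposited columns hold the authors' comparison of diets (fold changes, p-values and adjusted p-values under 2 dispersion estimates) and were not used. No column of single livers was used, so the planned test of the diets was not run.

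Values were converted to CPM. Reads were estimated as 12 times the excess over the lowest value, assuming a prior count of 2. Exact 95% Poisson intervals cover counting error only. The step was tested on simulated data. Positions, lengths and overlaps came from GENCODE M21 (GRCm38), which held all 46 genes. Curated transcripts and promoters came from RefSeq GRCm38.p6. Genes and lists were chosen with earlier results of these data known. Every imprinted gene is named, as are the highest markers of a list. Genes above 1 CPM are also named from the IGF list and from the list on DNA methylation and imprints. Other genes named (such as Hnf4a, Serpina1a, Alas2, the reference genes, overlapping genes and list members at or below 1 CPM) were chosen after their values were seen. Scripts ran in Python 3.11.15 (pandas 2.3.3, numpy 2.4.6, scipy 1.17.1; figures with matplotlib 3.10.9).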

Additional observations from a re-analysis of the deposited data

How the results depend on the processing

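No paired analysis was possible because the column used holds 1 average over all livers and the labels give no replicate numbers shared by the diets. For the same reason the planned edgeR quasi-likelihood test of the diets was not run. Neither were variants of it with DESeq2 size factors, without a filter or without each liver. The number of imprinted genes above 1 CPM was 29, and 26 after the added count was subtracted, 38 at a minimum of 0.5 CPM and 17 at 5 CPM. Chosen after seeing the data, a minimum of 100 CPM left 6, and 14 of the 29 had 1 curated RefSeq transcript. Paternally expressed genes numbered 15 above 1 CPM and 8 above 5 CPM. Maternally expressed genes numbered 6, or 11 with the genes that are imprinted in some tissues. Medians per kilobase were 0.650 and 0.265 CPM per kb for paternally and maternally expressed genes, in place of 1.79 and 1.32 CPM. Chosen after seeing the data, the union of exons as length gave 0.439 and 0.154 CPM per kb. The median transcript length gave 1.02 and 1.41 CPM per kb, and counting in the genes imprinted in some tissues raised the maternal median to 1.89 CPM, so the maternal median was the higher one in both cases. With reads required, they were 1.84 and 1.32 CPM. At least 10 reads were estimated for 42 of the 43 genes with reads. Of the 10 highest genes per kilobase, 8 were also among the 10 highest with the median transcript length, where Igf2r and not Cd81 led, and 10 with the union of exons, where Cd81 led. Depth limits a gene at 0 reads to 0.0190 CPM, taken as 3 reads.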

Other observations

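Genes linked to DNA methylation or to the keeping of imprints were listed together with the imprinted genes. Of 18 such genes, 9 were above 1 CPM, with a median of 1.19 CPM. Trim28, the corepressor that ZFP57 recruits, was highest at 560 CPM. Smchd1, a chromatin protein of silenced alleles, had 234 CPM, and Zfp445, a zinc finger protein that also guards imprints, had 214 CPM. Tet3 had 156 CPM, Arid4a 31.2 CPM, Ctcf, the insulator protein of the Igf2-H19 control region, 16.6 CPM, and Arid4b 5.56 CPM. The maintenance methyltransferase Dnmt1 was listed at 5.31 CPM and Zfp57 at 1.88 CPM. Uhrf1, which brings DNMT1 to replicated DNA, and Dnmt3l were listed at 0 reads. As for the imprinted genes, values at or near 0 are given only as listed.

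The 7 noncoding imprinted genes were above 1 CPM in 6 cases, H19 being the exception, with a median of 3.19 CPM. The 39 protein-coding ones were above it in 23 cases, with a median of 1.79 CPM. No test of this difference was made.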
